A study of Mus musculus with 18 samples.

Results

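Mitochondria fuse and divide throughout the life of a neuron, and the balance of both processes sets whether they form long networks or short units that can be carried along axons or removed. Fusion of the outer membrane is carried out by the mitofusins, the large GTPases Mfn1 and Mfn2, and fusion of the inner membrane by the related GTPase Opa1, which the protease Oma1 cleaves when mitochondria are stressed. Division is carried out by Drp1, the product of Dnm1l, a cytosolic GTPase that wraps around the organelle after docking on outer membrane proteins such as Mff and Fis1. These 7 genes were followed here in the lateral septum (LS), a mostly GABAergic region of the basal forebrain with ties to the hippocampus and hypothalamus.

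Total RNA of 18 female outbred hsd:ICR mice about 70 days old was measured, each mouse on its own Affymetrix Mouse Gene 1.0 ST array, with 6 mice in each of 3 groups. Virgin mice had been housed with other females and were all diestrous, while mice of the other groups had been housed with a breeder male for mating. All mice were later housed singly. Exposure to a male, mating and pregnancy thus differed together between virgin mice and both other groups. Maternal mice were lactating, and pups removed mice had given birth but lost their litter on postpartum Day 2, and these also were all diestrous. Litters had been culled to 11 pups where needed. Brains of mothers with and without pups were taken on postpartum Day 7 and those of virgins on the same days, and the LS of each mouse was collected by micropunch on both sides. Lactation and contact with pups differed together between maternal mice and the other groups, and the estrous state of maternal mice is not given in the sources used here.

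The deposited file holds 35557 probesets, and 21789 of them are annotated to exactly 1 gene. Each of the 7 genes had 1 probeset that names it alone and none shared with other genes, so 7 of 7 were measured and the rule of taking the brightest probeset made no choice. On the mouse assembly GRCm38.p6, Mfn1 lies at chr3:32529443-32579225, Mfn2 at chr4:147873586-147904909, Opa1 at chr16:29579281-29663127 and Dnm1l at chr16:16312228-16359038. Fis1 lies at chr5:136953275-136966234, Mff at chr1:82724890-82752390 and Oma1 at chr4:103311875-103371869. The set was put together around Mfn1, whose difference between maternal and virgin LS on these same arrays was already known, so for that gene the maternal and virgin values are a description and carry no test.

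The promoters of both mitofusins and of Opa1 are shown because the set was put together around Mfn1. The other members of the fusion machinery are its nearest relatives in function. Windows run from 250 bases before to 50 bases after an annotated start, are taken from RefSeq on GRCm38.p6 and are written 5′ to 3′ on the strand of the gene. Where a gene had several windows, that nearest its outermost start is given. Capitals mark 3 sets of letters searched on both strands: CGCATGCG, the core of the site of nuclear respiratory factor 1, CCGGAAGT, the site of ETS factors such as Gabpa, and GGGCGG, the GC box, which reads CCGCCC on the other strand. Mfn1 is at chr3:32529232-32529531 (+), Mfn2 at chr4:147904860-147905159 (-) and Opa1 at chr16:29579084-29579383 (+).
Mfn1: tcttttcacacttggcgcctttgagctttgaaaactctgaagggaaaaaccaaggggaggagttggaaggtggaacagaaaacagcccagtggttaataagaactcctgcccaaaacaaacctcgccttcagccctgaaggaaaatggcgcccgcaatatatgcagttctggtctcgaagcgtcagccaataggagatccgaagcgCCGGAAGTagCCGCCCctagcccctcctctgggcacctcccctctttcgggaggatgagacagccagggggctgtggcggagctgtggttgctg
Mfn2: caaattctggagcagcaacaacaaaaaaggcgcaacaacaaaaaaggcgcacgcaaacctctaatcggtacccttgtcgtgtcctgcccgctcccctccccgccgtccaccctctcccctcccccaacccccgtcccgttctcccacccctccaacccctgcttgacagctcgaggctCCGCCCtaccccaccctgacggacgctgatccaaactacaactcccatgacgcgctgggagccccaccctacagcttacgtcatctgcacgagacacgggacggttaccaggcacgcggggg
Opa1: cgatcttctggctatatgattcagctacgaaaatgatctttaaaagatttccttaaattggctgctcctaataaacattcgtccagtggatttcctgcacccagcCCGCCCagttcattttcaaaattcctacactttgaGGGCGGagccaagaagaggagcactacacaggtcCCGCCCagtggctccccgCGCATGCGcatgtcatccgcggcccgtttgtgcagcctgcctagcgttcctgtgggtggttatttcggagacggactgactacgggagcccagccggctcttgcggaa
The Mfn1 window held the ETS letters at position -44 from the start and a GC box at -34, Mfn2 held only a GC box, and Opa1 held the nuclear respiratory factor letters at -58 and 3 GC boxes. No marked site overlapped another in these windows. Across all 7 members, 2 windows (Mfn1 and Fis1) held the ETS letters, 1 (Opa1) the nuclear respiratory factor letters and 7 a GC box. The same letters occurred in 3.89%, 1.87% and 35.7% of 32851 mouse promoter windows of 300 bases. A match of letters is a description of the window and not a binding site. Of the factors named, Nrf1 differed between maternal and virgin LS by 0.02 on the log2 scale (limma standard error, SE, 0.04, adjusted p = 0.928, 95% interval -0.07 to 0.11) and Gabpa by -0.06 (SE 0.04, adjusted p = 0.683, 95% interval -0.14 to 0.03).

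Signals are on a log2 scale, where a step of 1 doubles the signal, and they compare mice for 1 probeset but not 1 gene with another. Mfn1 read 9.19, 8.99, 9.26, 9.26, 9.21 and 9.27 in virgin replicates 1 to 6. In maternal mice it read 9.40, 9.40, 9.36, 9.40, 9.46 and 9.38, and in pups removed mice 9.38, 9.37, 9.36, 9.43, 9.28 and 9.26. Every maternal mouse stood above the highest virgin. Of the pups removed mice, 5 of 6 were above the highest virgin and replicate 6 was just under it. All pups removed mice but replicates 5 and 6 lay within the maternal range. In bulk tissue, more RNA per cell and more cells that carry it cannot be told apart.

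**Figure D1:**
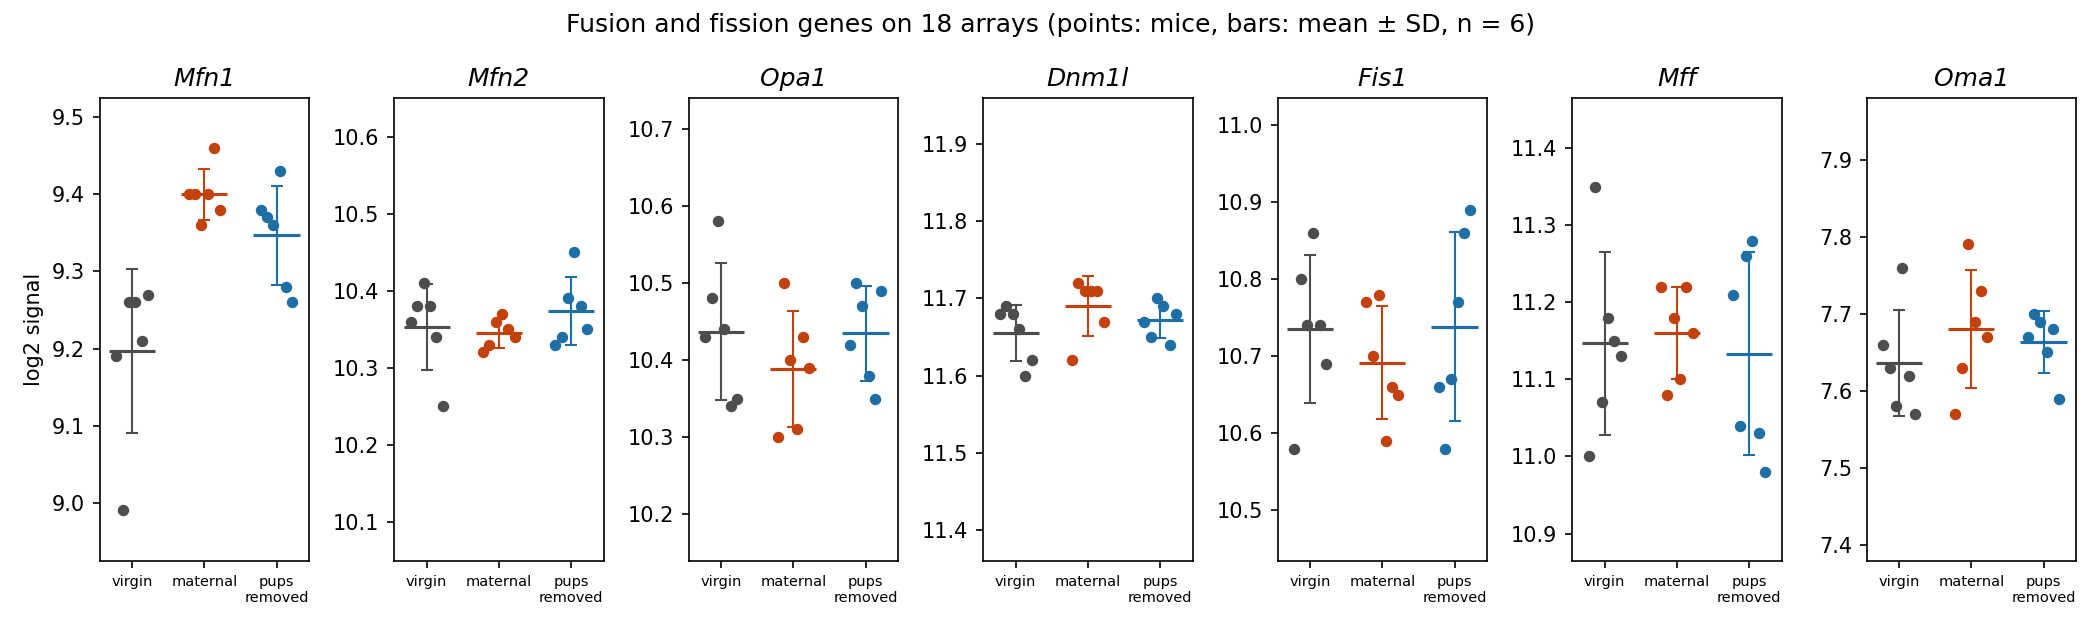
Log2 signal (y axis) of the 7 genes in virgin, maternal and pups removed mice (x axis), with 1 point per mouse and bars for the mean and SD of 6 mice. Each panel spans the same height on the log2 scale. The 6 maternal points of Mfn1 lie at 9.36 to 9.46, above all virgin points, and the groups overlap in the other 6 panels.

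Mfn1 averaged 9.20 ± 0.106 in virgin LS, 9.40 ± 0.033 in maternal LS and 9.35 ± 0.064 in pups removed LS (mean ± SD, n = 6 for each). Maternal exceeded virgin LS by 0.20 on the log2 scale (SE 0.045, 95% interval 0.11 to 0.30), a fold change of 1.15. It was the only one of the 7 members called at the false discovery rate of 0.25 that the study used, against 1.65% of all 35557 probesets called in either direction and 0.832% called higher in maternal LS. Since Mfn1 was chosen for this difference, nothing is read from that count. The maternal and virgin ranges of Mfn1 did not overlap, which was so for 0.835% of probesets.

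The remaining comparisons of Mfn1 share their maternal or virgin arrays with the one it was chosen for, so they are not independent of it. Pups removed exceeded virgin LS by 0.15 (SE 0.045, 95% interval 0.06 to 0.25), a fold change of 1.11. This did not pass adjustment over all probesets (limma FDR-adjusted p = 0.38), and 348 probesets had a smaller p. Maternal LS exceeded pups removed LS by 0.05 (SE 0.045, adjusted p = 0.76), with a 95% interval from -0.04 to 0.15. In order of level, maternal LS stood first, pups removed LS second and virgin LS last, and the neighbours maternal and pups removed did not differ beyond their spread. Only maternal replicate 5 lay above the highest pups removed mouse.

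Virgin replicate 2, at 8.99, was the lowest array for Mfn1 by a wide margin. Without it the maternal difference from virgin LS was 0.16 and that of pups removed LS was 0.11, the lowest values that leaving out any single array gave. Over all 18 arrays left out in turn, the maternal difference from virgin LS ran up to 0.22 and that of pups removed LS up to 0.17. Without virgin replicate 2 the call of Mfn1 in maternal versus virgin LS stayed only just under the threshold. Mfn1 was no longer called without maternal replicate 5, where the difference was 0.19. In that fit only 10 of all probesets were called in maternal versus virgin LS, against 585 with all arrays. On virgin replicate 2 the array median was 7.61, the lower end of the range of 7.61 to 7.70 of all arrays. Virgin replicate 3 had the same median. The probesets of virgin replicate 2 spread around the mean of the other virgins with an SD of 0.218, the largest of all arrays.

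**Figure D2:**
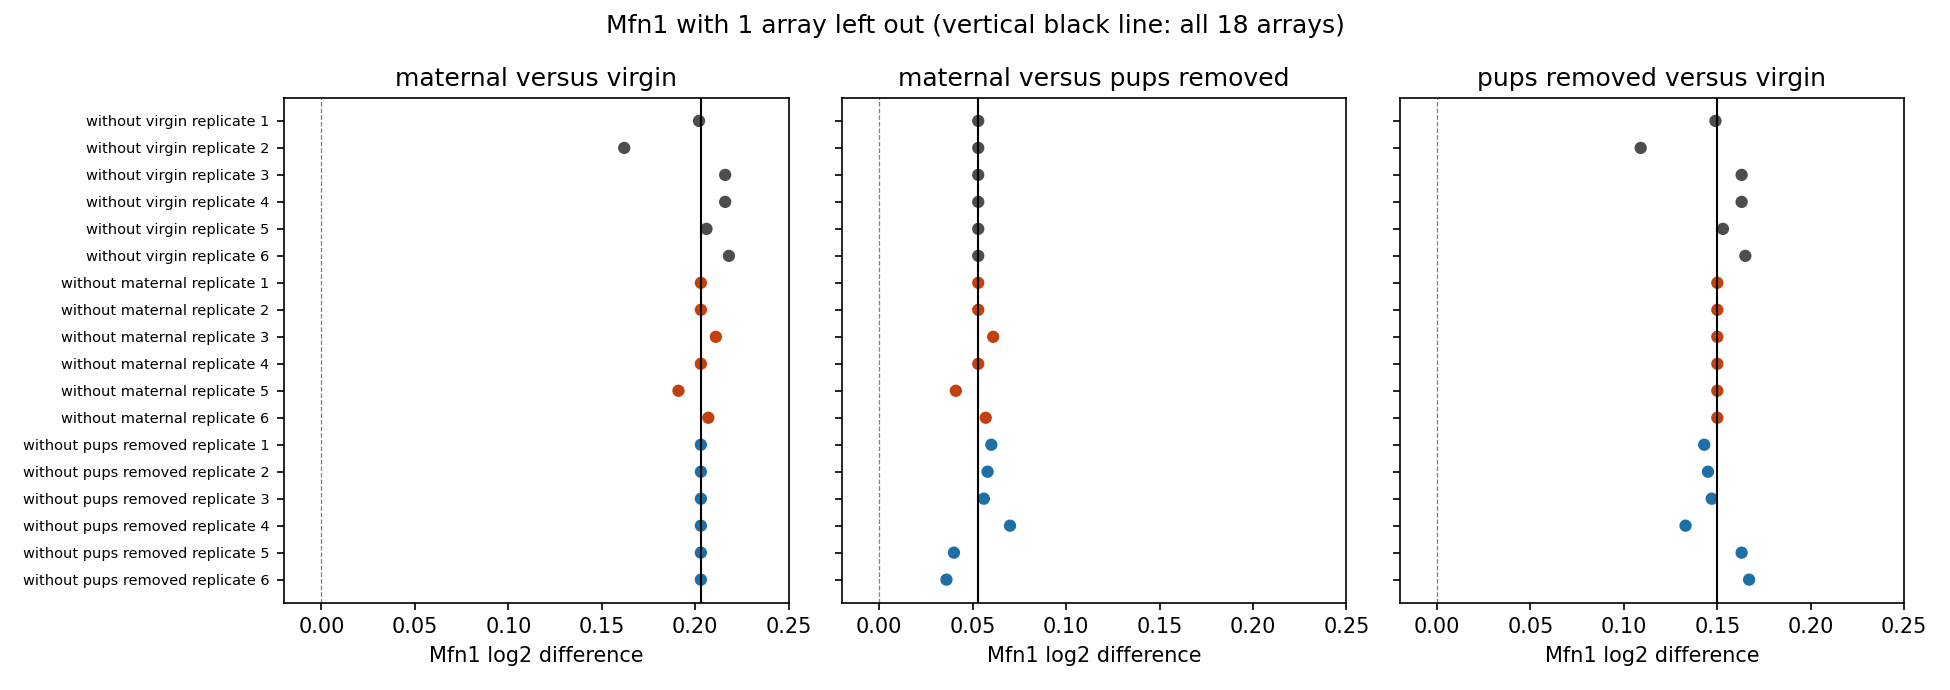
Mfn1 log2 difference (x axis) in the 3 comparisons after leaving out 1 array (rows), colored by the group of that array. The black line is the value with all 18 arrays, and the points without virgin replicate 2 lie at 0.16 in maternal versus virgin and at 0.11 in pups removed versus virgin LS.

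Mfn2, the second mitofusin, which also tethers mitochondria to the endoplasmic reticulum, had values from 10.25 to 10.41 in virgin mice (median 10.37), from 10.32 to 10.37 in maternal mice (median 10.345) and from 10.33 to 10.45 in pups removed mice (median 10.365). The 3 ranges overlapped, and the lowest value was virgin replicate 6. The difference between maternal and virgin LS was -0.01 (SE 0.031, adjusted p = 0.952), with a 95% interval from -0.07 to 0.06. Against pups removed LS it was -0.03 (adjusted p = 0.826, 95% interval -0.09 to 0.04).

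Opa1, the inner membrane fusion GTPase, ran from 10.34 to 10.58 in virgin (median 10.435), 10.30 to 10.50 in maternal (median 10.395) and 10.35 to 10.50 in pups removed LS (median 10.445). Its highest array was virgin replicate 3, and the groups overlapped along most of their range. Maternal minus virgin LS was -0.05 (SE 0.046, adjusted p = 0.758, 95% interval -0.15 to 0.05), and maternal minus pups removed LS was also -0.05 (adjusted p = 0.8, 95% interval -0.14 to 0.05). Oma1, the protease that cuts Opa1, ran from 7.57 to 7.76 in virgin (median 7.625), 7.57 to 7.79 in maternal (median 7.68) and 7.59 to 7.70 in pups removed LS (median 7.675). Its maternal minus virgin difference was 0.04 (SE 0.040, adjusted p = 0.752, 95% interval -0.04 to 0.13).

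Dnm1l, the fission GTPase, had the narrowest spread of the fission genes. It ran from 11.60 to 11.69 in virgin (median 11.67), 11.62 to 11.72 in maternal (median 11.71) and 11.64 to 11.70 in pups removed LS (median 11.675). In 4 of 6 maternal mice it stood above the highest virgin, while maternal replicate 1 was among the low arrays. The maternal minus virgin difference was 0.04 (SE 0.028, adjusted p = 0.697, 95% interval -0.02 to 0.09).

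Fis1 and Mff, which are among the outer membrane proteins linked to the docking of Drp1, varied more between mice of a group than between groups. Fis1 ran from 10.58 to 10.86 in virgin (median 10.74), 10.59 to 10.78 in maternal (median 10.68) and 10.58 to 10.89 in pups removed LS (median 10.72), and its maternal minus virgin difference was -0.04 (SE 0.057, adjusted p = 0.84, 95% interval -0.16 to 0.08). Mff ran from 11.00 to 11.35 in virgin (median 11.14), 11.08 to 11.22 in maternal (median 11.17) and 10.98 to 11.28 in pups removed LS (median 11.125). Its maternal minus virgin difference was 0.01 (SE 0.061, adjusted p = 0.962, 95% interval -0.12 to 0.14). The highest Mff array was virgin replicate 2, on which Mfn1 was lowest.

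Against virgin LS, pups removed LS differed in these 6 genes by 0.002 to 0.027 in size, with adjusted p of 0.912 to 0.995 and 95% intervals that lay within -0.14 to 0.12. The signs of Mfn2, Dnm1l, Fis1 and Oma1 in this comparison turned when the median of each array was subtracted, so no direction is given. In the comparison of maternal with pups removed LS the sizes were 0.017 to 0.047, with adjusted p of 0.8 to 0.933. None of the 7 members was called in either of these comparisons, against a background of 0.208% of probesets for pups removed versus virgin LS and 0.0309% for maternal versus pups removed LS. At an unadjusted p under 0.05, 1 member passed in maternal versus virgin LS (Mfn1, background 10.4%), 1 in pups removed versus virgin LS (Mfn1, background 8.13%) and 0 in maternal versus pups removed LS (background 8.96%). Mfn1 was chosen for its maternal difference from virgin LS, and pups removed LS is compared with the same virgin arrays. Nothing is read from its passing in either comparison. No member separated pups removed from virgin LS or maternal from pups removed LS without overlap, against 0.38% and 0.529% of probesets. The median difference of the 7 members was 0.01 in maternal versus virgin LS and 0.02 in each of the other comparisons, beside 0.00, -0.01 and 0.01 for all probesets of 1 gene, in the order maternal versus virgin, maternal versus pups removed and pups removed versus virgin.

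**Figure D3:**
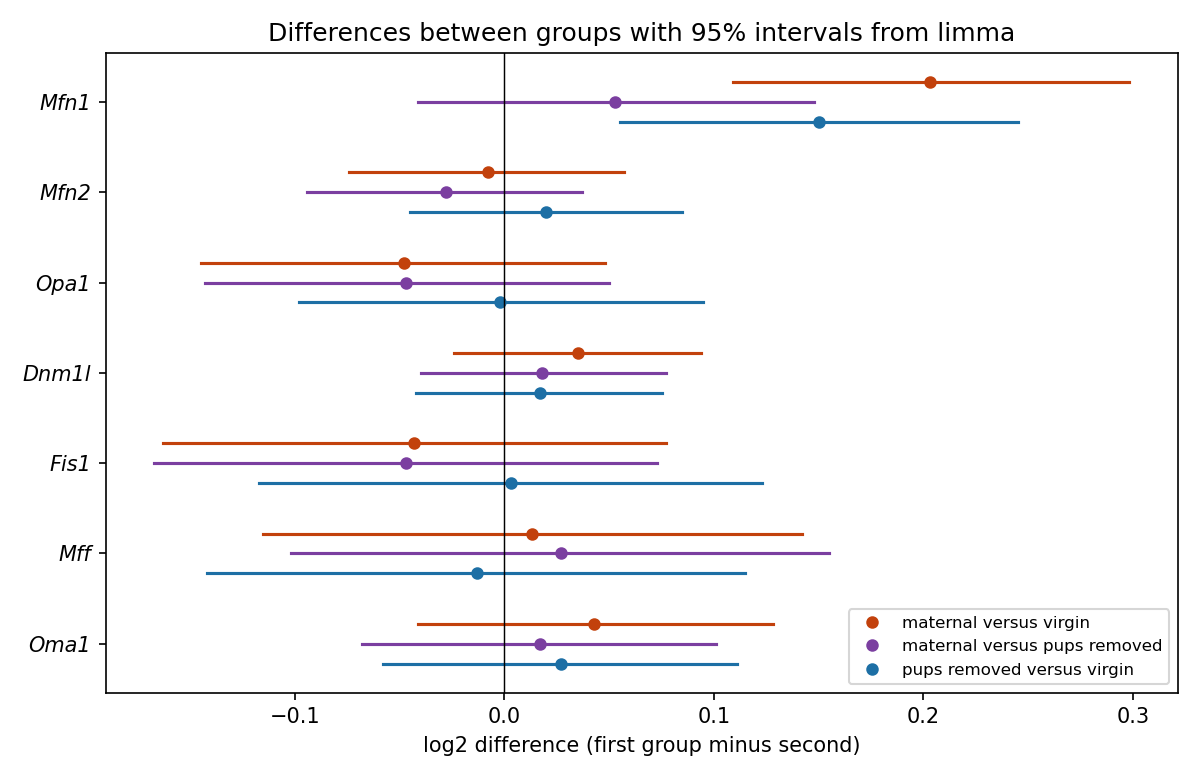
Log2 difference (x axis, first group minus second) of each gene (rows) in the 3 comparisons, with 95% intervals from limma. The intervals of Mfn1 against virgin LS span 0.11 to 0.30 for maternal and 0.06 to 0.25 for pups removed mice. Those of the other 6 genes include 0. Mfn1 was chosen for its maternal difference on these arrays, and pups removed mice are compared with the same virgins. Nothing is read from where its intervals lie, and its pups removed difference did not pass adjustment (limma adjusted p = 0.38).

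How the members varied from mouse to mouse was examined after subtracting each group's mean. Over the 18 arrays, Opa1 and Dnm1l had a Pearson r of 0.63 (permutation p = 0.0125, adjusted p = 0.189 over 21 pairs of members) and a Spearman rho of 0.66 (permutation p = 0.00714, adjusted p = 0.15). Without the 2 arrays farthest from the median of Opa1, r was 0.53. For Mfn2 and Dnm1l, r was 0.54 (permutation p = 0.018, adjusted p = 0.189) and rho 0.56 (permutation p = 0.0179, adjusted p = 0.188), and r stayed at 0.54 without the 2 farthest arrays. Neither passed an adjusted p of 0.05, and 0 of 21 pairs did. With the median of each array subtracted, the r of Opa1 and Dnm1l was 0.81 and passed (permutation adjusted p = 0.0132). The 6 pairs that include Mfn1 had r from -0.34 to 0.07, and the smallest adjusted p of r among them was 0.869 by the permutation test. Virgin replicates 1 and 2 were the arrays farthest from the median of Mfn1 before group means were subtracted. After that step Mfn1 stood at -0.207 on virgin replicate 2 and at -0.007 on virgin replicate 1. Without these arrays the r of Mfn1 and Mff went from -0.06 to 0.65, and that of Mfn1 and Fis1 from -0.34 to -0.52, neither of which was tested. Taken group by group, Mfn1 and Mff had r = -0.72 among the 6 virgins, 0.28 among the 6 maternal mice and 0.81 among the 6 mice without pups, so no common relation is given for that pair. The Mfn1 and Mfn2 signals had r = -0.05 (permutation p = 0.869, adjusted p = 0.869) and rho = 0.04 (permutation p = 0.893, adjusted p = 0.945), and without virgin replicates 1 and 2 r was 0.19. The permutation tests were two-sided and permuted arrays within groups, with 100000 resamples.

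**Figure D4:**
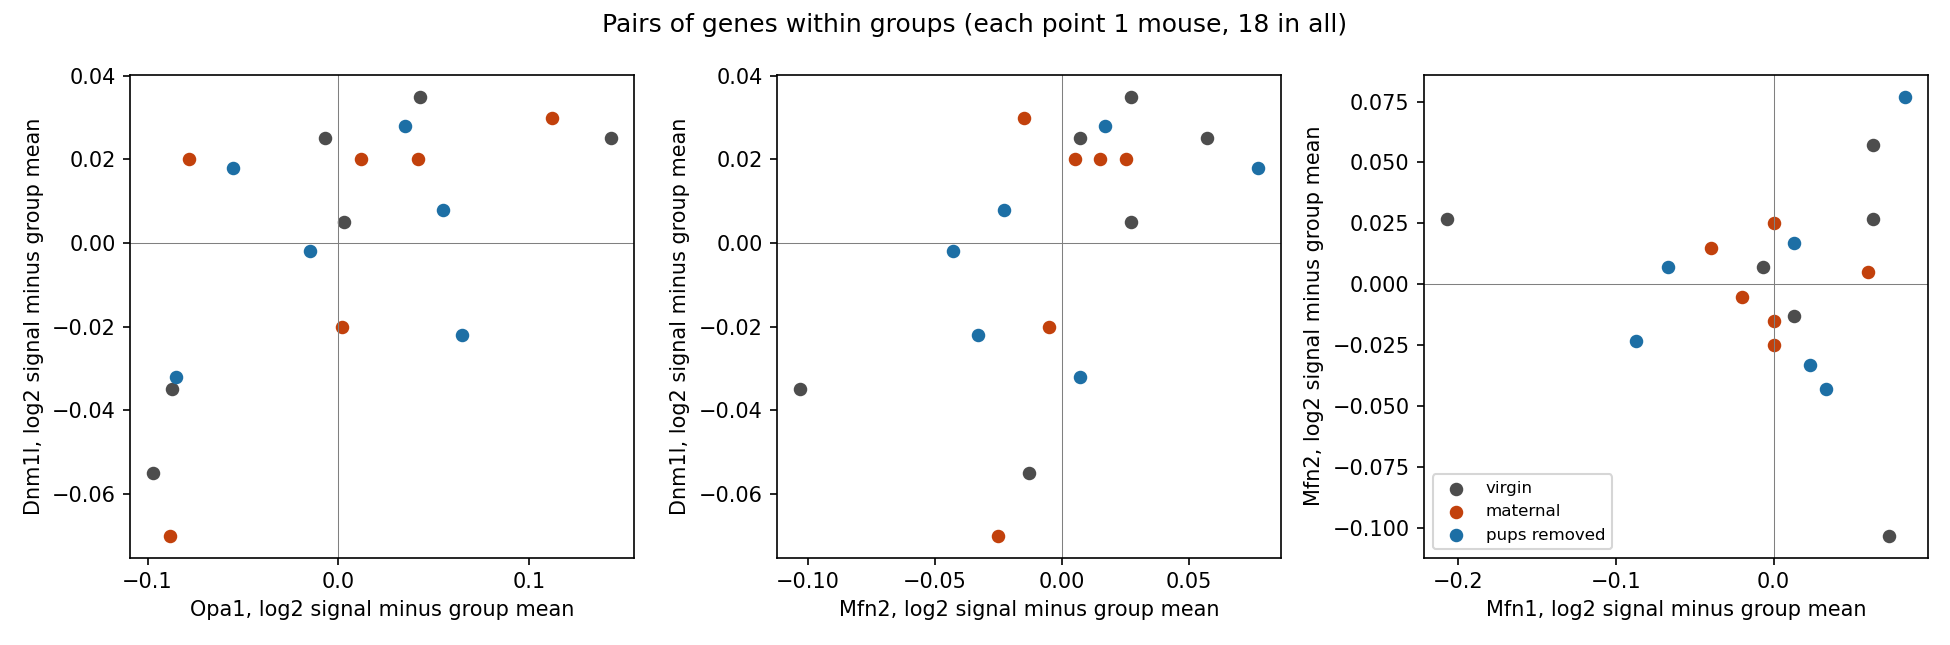
Log2 signal minus the mean of the group for Opa1 and Dnm1l, Mfn2 and Dnm1l, and Mfn1 and Mfn2, with 1 point per mouse (18 in all) colored by group. The points rise together in the first and second panels (r = 0.63 and 0.54) and show no common trend in the last (r = -0.05), where virgin replicate 2 lies far to the left.

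The genes whose signal followed that of Mfn1 most closely over all 18 arrays were Csmd3 (r = 0.91), a large transmembrane protein of neurons, Nsd3 (r = 0.90), a histone methyltransferase, C730029A08Rik (r = 0.88), Fryl (r = 0.88) and Mdm4 (r = 0.87), a regulator of p53. After subtracting group means the order changed to C730029A08Rik (r = 0.94), Scaf8 (r = 0.90), Lsm1 (r = 0.86), Csmd3 (r = 0.83) and Inpp5b (r = 0.82). These r are descriptions over the arrays, which share a low value on virgin replicate 2: all 8 genes were at their virgin minimum there, Csmd3 at 10.31 against 10.46 to 10.57 in the other virgins and C730029A08Rik at 6.96 against 7.36 to 7.47. Without that array the r over 17 arrays fell to 0.81 for Csmd3 and Nsd3 and to 0.70 for Mdm4, and none of the first 5 genes stayed among the 5 most alike, with ranks of 9 for Csmd3, 8 for Nsd3, 50 for C730029A08Rik, 55 for Fryl and 83 for Mdm4. After centering, r without that array was 0.63 for Csmd3, now at rank 313, 0.84 for C730029A08Rik, 0.80 for Lsm1 and 0.26 for Mdm4. Lsm1, chosen on centered values, had r = -0.05 with Mfn1 over the 17 arrays without centering. Of these genes, Nsd3 had non-overlapping maternal and virgin values, as 0.835% of probesets did, with a maternal minus virgin difference of 0.12 (SE 0.032), a value that its likeness to Mfn1 already favors.

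The wider machinery was followed in 5 lists with 97 genes, of which 90 had a probeset of their own. Among 31 measured genes of mitochondrial shape and cristae, 1 was called in maternal versus virgin LS, near the 1.65% called over all probesets. Spire1, an actin nucleator with a mitochondrial splice form that takes part in division, ran from 10.27 to 10.34 in virgin, from 10.39 to 10.43 in maternal and from 10.26 to 10.39 in pups removed LS. Maternal and virgin values did not overlap, as for 0.835% of probesets, and Spire1 rose by 0.10 (SE 0.027, limma adjusted p = 0.212). The median difference of the list was -0.01, beside 0.00 for all probesets of 1 gene. This call was lost in 11 of 24 alternative settings, with differences of 0.08 to 0.10 in those settings and adjusted p from 0.138 to 0.391 over all 24. They were the replicate block, subtraction of array medians, a fit of only the maternal and virgin arrays, and the fits without virgin replicate 2, 3 or 5 or without maternal replicate 2, 3, 4, 5 or 6. Against pups removed LS the difference of Spire1 was 0.08 (adjusted p = 0.399).

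Other genes of that list were nearer to the threshold than most but did not pass. Phb2, a scaffold of the inner membrane, differed by -0.09 between maternal and virgin LS (SE 0.030, adjusted p = 0.292). Inf2, a formin that builds actin where the endoplasmic reticulum meets mitochondria, differed by -0.23 (SE 0.082, adjusted p = 0.315) and by -0.24 against pups removed LS (adjusted p = 0.421). Mtfr1l, a regulator of mitochondrial shape, differed by -0.08 (adjusted p = 0.335). Afg3l1, a subunit of an inner membrane protease, differed by -0.01 between maternal and virgin LS (adjusted p = 0.945) and by -0.09 between maternal and pups removed LS (adjusted p = 0.508).

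Among 16 measured genes of mitophagy, the removal of damaged mitochondria, 0 were called, and in maternal versus virgin LS 12 had differences below 0 and 4 above, with a median of -0.02 beside 0.00 for all probesets of 1 gene. By limma, an unadjusted p was under 0.05 for 2 of the 16, near the 10.4% of all probesets, and 1.65% of all were called. Pink1, the kinase that marks damaged mitochondria, differed by -0.11 (SE 0.045, adjusted p = 0.411). Usp30, a deubiquitinase that counters the ubiquitin ligase parkin, differed by -0.09 (SE 0.037, adjusted p = 0.39), and Bcl2l13, a mitophagy receptor, by -0.08 (adjusted p = 0.499). Park7, a redox-sensitive chaperone, differed by -0.07 in this comparison (adjusted p = 0.742) and by -0.13 between maternal and pups removed LS (adjusted p = 0.572).

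Among 10 measured genes of mitochondrial transport, 0 were called and 0 had an unadjusted p under 0.05 by limma in any comparison, beside 8.13% to 10.4% of all probesets, so little can be read from a 0 among 10 genes. Rhot1, the outer membrane GTPase Miro1 that links mitochondria to motors, differed by 0.06 between maternal and virgin LS (SE 0.050, adjusted p = 0.736, 95% interval -0.05 to 0.16). Trak2, the adaptor between Miro and kinesin or dynein, differed by -0.08 (SE 0.047, adjusted p = 0.587, 95% interval -0.18 to 0.02). The median of the list was 0.01.

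Of the 17 genes of mitochondrial biogenesis, 0 were called, and 0, 2 and 0 had an unadjusted p under 0.05 by limma in maternal versus virgin, maternal versus pups removed and pups removed versus virgin LS. Over all probesets those shares were 10.4%, 8.96% and 8.13%, and the shares called were 1.65%, 0.0309% and 0.208%. Ppargc1a, the coactivator PGC-1α, had a maternal minus virgin difference of 0.01 (SE 0.037, adjusted p = 0.968, 95% interval -0.07 to 0.08). Tfam, which packages mitochondrial DNA, differed by -0.09 (SE 0.060, adjusted p = 0.613) and by -0.15 against pups removed LS (adjusted p = 0.505). Twnk, the mitochondrial helicase, differed by -0.11 between maternal and pups removed LS (SE 0.041, adjusted p = 0.466).

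Of 16 genes listed for mitochondrial mass and protein import, 1 was called in maternal versus virgin LS, beside 1.65% of all probesets. Their signals are RNA, and mitochondrial mass was not measured. Tomm70a, now named Tomm70, a receptor for proteins imported through the outer membrane, ran from 10.01 to 10.31 in virgin, from 9.87 to 10.03 in maternal and from 10.08 to 10.19 in pups removed LS. Maternal values lay below all pups removed values, a separation shown by 0.529% of probesets, and below the lowest virgin in 4 of 6 mice. Tomm70a fell by 0.205 between virgin and maternal LS (SE 0.050, limma adjusted p = 0.166), and the difference between maternal and pups removed LS was -0.16 (adjusted p = 0.39). The call against virgin LS was lost in 5 of 24 alternative settings, without virgin replicate 2 or 3, without maternal replicate 4 or 5, and with only the maternal and virgin arrays in the fit, with differences of -0.21 to -0.18.

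In the mass and import list 14 of 16 genes had differences below 0 in maternal versus virgin LS, with a median of -0.04 beside 0.00 for all probesets of 1 gene. By limma, an unadjusted p was under 0.05 for 2 of the 16, near the 10.4% of all probesets. Cs, the gene of citrate synthase, differed by -0.07 (SE 0.031, adjusted p = 0.477). Tomm20, another import receptor, differed by -0.11 (SE 0.054, adjusted p = 0.504), Hspa9, the import motor of the matrix, by -0.06 (adjusted p = 0.519) and Slc25a5, an ADP/ATP carrier, by -0.09 (adjusted p = 0.558). Timm44, which tethers that motor, differed by -0.13 between maternal and pups removed LS (adjusted p = 0.485). None of the 90 genes was called here in maternal versus pups removed or in pups removed versus virgin LS. At the same threshold the paper lists Tomm70a as lower in maternal LS than in both other groups. It also lists Mfn1 and Spire1 among its most significant genes in maternal versus virgin LS, at smaller adjusted p than here. The paper called more targets in that comparison than were called here, so its calls differ from those here.

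**Figure D5:**
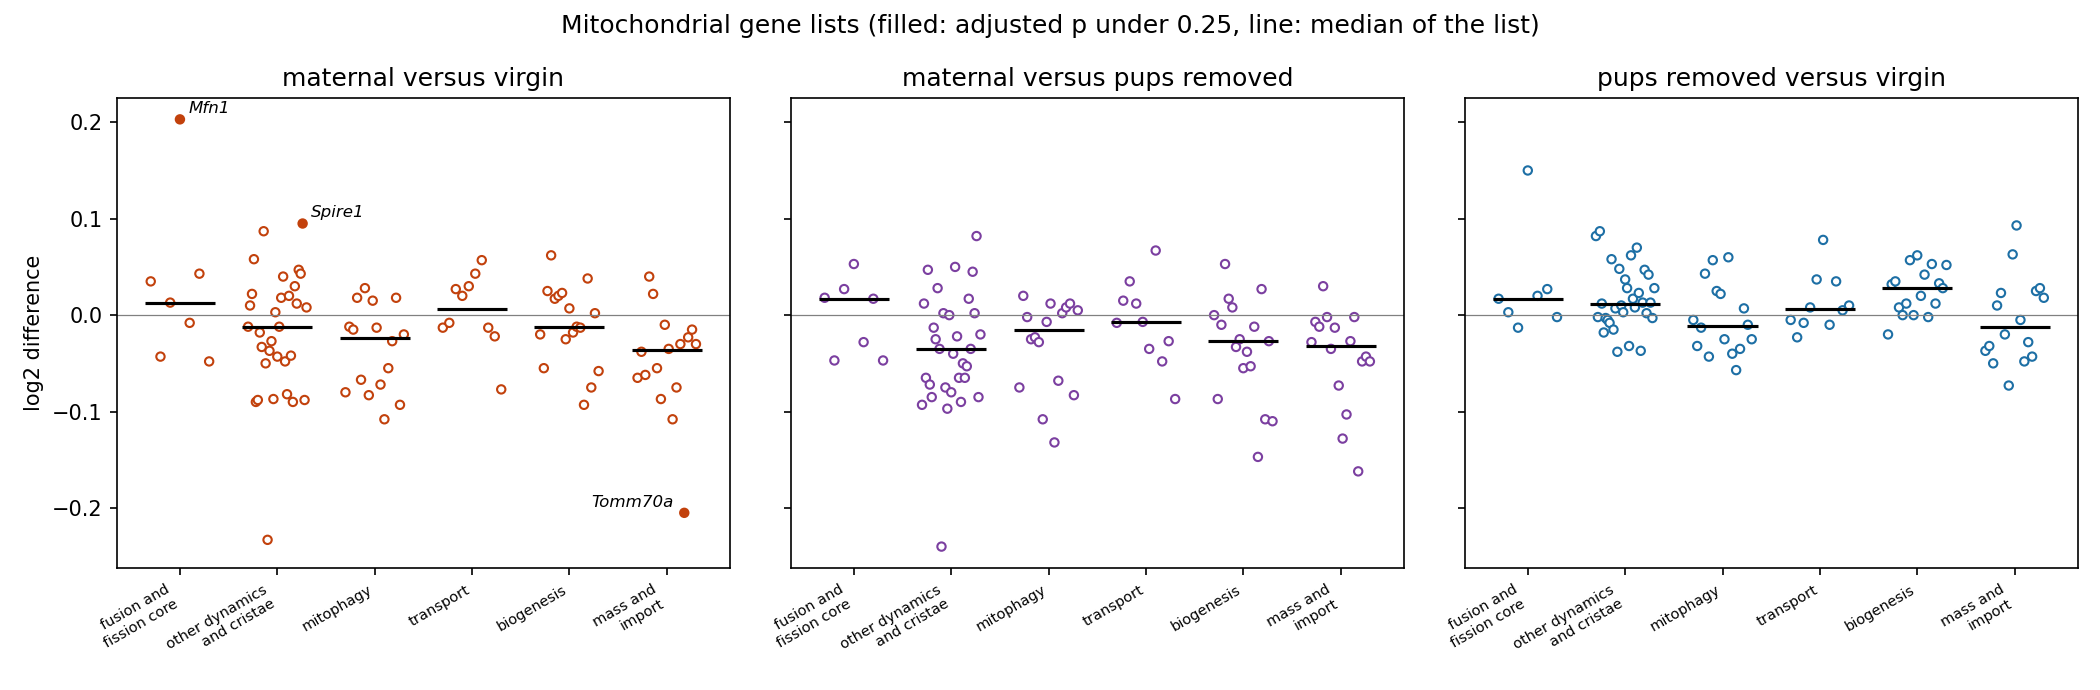
Log2 differences (y axis) of the measured genes of 6 lists (x axis) in the 3 comparisons, with 1 point per gene, the median of each list as a black line and called genes filled and named. Mfn1 at 0.20 and Spire1 at 0.10 are called above 0 and Tomm70a at -0.21 below 0, all in maternal versus virgin LS.

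Markers of cell types that the dissected tissue could hold were followed on the same arrays. Markers of LS neurons averaged 10.89 to 10.98 in virgin, 10.92 to 10.99 in maternal and 10.80 to 11.05 in pups removed mice (mean log2 signal of 10 measured of 11), and 0 of them were called. Of 12 markers of striatal neurons, the tissue beside the LS, 10 were measured, and all 10 had differences below 0 in maternal versus virgin LS with a median of -0.46. By limma, all 10 had an unadjusted p under 0.05 in that comparison, beside 10.4% of all probesets, and 1 (Adcy5) was called. Their summed linear signal was 18645 to 22213 in virgin, 11740 to 17549 in maternal and 12841 to 24050 in pups removed mice. The maternal range of these sums lay wholly below the virgin range. The 6 markers of choroid plexus also had differences below 0 in maternal versus virgin LS (median -0.41, 0 called), with summed signals of 1636 to 17382 in virgin, 1515 to 14322 in maternal and 1352 to 16584 in pups removed mice. In maternal versus virgin LS, 2 of 7 microglial markers (P2ry12 and Aif1) were called lower, while 3 of the 7 had differences above 0, and 1 of 5 endothelial markers (Flt1) was called higher, while 3 of the 5 had differences below 0. This compares with 1.65% of all probesets called. None of 8 markers of astrocytes, 7 of oligodendrocytes and 2 of red blood cells was called. The part of all these markers in the differences of Mfn1, Spire1 and Tomm70a was not tested.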

How the data were processed

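Values were used as the authors deposited them: log2 signals of 35557 probesets, summarized from the array scans by PLIER with GC-bin background correction in Affymetrix Power Tools 1.12.0 per the labels and methods. A method of normalization between arrays is not named there. Values have 2 decimals. Genes follow the platform annotation (21789 probesets name 1 gene, 1621 several, 12147 none), and coordinates and promoters RefSeq on GRCm38.p6.

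With limma 3.58.1 (R 4.3.3), 1 model with the 3 groups was fitted per probeset on all 18 arrays, and eBayes gave 2.62 prior degrees of freedom. Benjamini-Hochberg adjustment covered every probeset of the file, and a probeset is called at an adjusted p under 0.25. The code of the fit was run on simulated data with independent noise for each probeset and array. Such data hold no deviation shared across an array, so that run says nothing on how well the fit suits these arrays. Arrays carry no read depth, and their number, 6 per group, limits precision. No pair among 153 array pairs had identical values. RNA had been prepared in triplets with 1 mouse of each group, but no label says which mice formed a triplet, and samples with a shared replicate number did not deviate together, so the triplets are not in the model.

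The 7 members and the lists were chosen with earlier results of these data known. Named from each list were the genes called and the 3 with the smallest p in each comparison, of which a selection is printed. Genes like Mfn1 were the 5 with the highest r over all arrays and the 5 after centering. Of the lists, 7 genes have no probeset of their own here and were not analysed. Alternatives were the replicate block, quantile normalization, subtraction of array medians, removal of the dimmest 25% of probesets, robust limma-trend, a fit of the compared groups alone, each array left out and, for the counts, an adjusted p under 0.05. For Spire1 and Tomm70a they were added after the data were seen. Figures were drawn with matplotlib 3.10.9.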

Additional observations from a re-analysis of the deposited data

Results flagged for a closer look

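Mfn1 on virgin replicate 2 read 8.99, while the other virgins read 9.19 to 9.27, and its gap to the nearest of them was 0.714 of the range of the group, above Dixon's 95% critical value for 6 samples. It was the only 1 of 21 sets of 6 arrays tested (7 genes in 3 groups) to exceed that value, and chance alone exceeds it in about 5% of sets.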

How the results depend on the processing

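Each of the 21 differences (7 genes in 3 comparisons) was computed under 6 alternatives with all 18 arrays, and 120 of 126 values kept their sign and their side of the threshold. Those that turned in sign were Mfn2 at 0.008 with quantile normalization and Mff at -0.003 with array medians subtracted in maternal versus virgin LS, and, with array medians subtracted in pups removed versus virgin LS, Mfn2 at -0.010, Dnm1l at -0.013, Fis1 at -0.027 and Oma1 at -0.003. Leaving out 1 array turned 20 of 378 values, in Mfn2 (-0.029 to 0.003) and Mff (-0.016 to 0.054) in maternal versus virgin LS, in Mff (-0.004 to 0.056) and Oma1 (-0.005 to 0.039) in maternal versus pups removed LS, and in Mfn2 (-0.001 to 0.031), Opa1 (-0.021 to 0.027), Fis1 (-0.028 to 0.035) and Mff (-0.043 to 0.027) in pups removed versus virgin LS. The correlation of Opa1 and Dnm1l was 0.81 with array medians subtracted. The cause of these shifts was not tested. Each gene had 1 probeset, so averaging probesets could give no other value.

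The number of probesets called in maternal versus virgin LS (585) was 0 at an adjusted p under 0.05 by limma (3706 had an unadjusted p under 0.05), 1091 without the dimmest 25% of probesets and 10 (without maternal replicate 5) to 1639 (without virgin replicate 6) with 1 array left out. In maternal versus pups removed LS (11) it was 5 at 0.05, 42 with quantile normalization, 7 with array medians subtracted, 90 without the dimmest probesets, 30 with robust limma-trend and 5 (without maternal replicate 4) to 719 (without pups removed replicate 4) with 1 array left out. In pups removed versus virgin LS (74) it was 7 at 0.05, 33 with only those groups in the fit and 18 (without virgin replicate 2) to 266 (without virgin replicate 4) with 1 array left out. With the replicate block, 356 probesets were called in maternal versus virgin LS. The block changed the call of none of the 7 genes. Same-numbered arrays had r from -0.25 to 0.10 and 0 of 18 correlated best with their own number, so the numbers were not taken to pair the mice.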
